A study of Mus musculus with 6 samples.

Results

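The miR-106b~25 cluster consists of 3 miRNA hairpins, Mir106b, Mir93 and Mir25, which lie close together in an intron of Mcm7, the gene for a subunit of the replicative DNA helicase. The members were taken by name, and every small RNA read of at least 18 nt that matched one of their hairpins was counted by arm, 5p or 3p. Levels are given as RPM, the reads of an arm per 1000000 hairpin reads of the sample. All 6 arms of the 3 hairpins had reads, out of 974 arms with reads among 1174 mouse hairpins searched. The cells, labelled bone marrow monocytes and named BMMs below, were cultured from wild-type C57BL/6 mice, which carry no engineered allele. The study's methods give male mice, 7 to 10 weeks old at the start, for all experiments. In the control group, 3 samples received PBS, and in the LPS group, 3 samples received 5 pg/ml LPS, a lipid-linked sugar from the surface of Gram-negative bacteria that Toll-like receptor 4 senses, for 4 h. Whether the samples came from separate animals is not given in the sources used here, so p-values measure only the spread between these samples, which may be technical. The comparison addresses whether miRNAs of these cells respond to super-low-dose LPS, and it is given here for the amount, the stoichiometry and the end forms of the cluster.

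A miRNA hairpin is cut by Drosha and then by Dicer, which leaves a duplex of a 5p and a 3p strand. One strand, the guide, is kept by Argonaute and finds target mRNAs mainly through its seed, bases 2 to 8, while the other strand is usually degraded. The miR-106b~25 cluster is a paralog of the miR-17~92 and miR-106a~363 clusters and is transcribed together with its host gene. Its members are known to repress the cell cycle inhibitor Cdkn1a and the pro-apoptotic factor Bcl2l11, and the cluster is active in proliferating cells, haematopoietic progenitors among them.

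The 3 hairpins occupy 498 bases on the minus strand of mouse chromosome 5 (GRCm38). Mir106b lies at chr5:138165737-138165818, Mir93 at chr5:138165523-138165610 and Mir25 at chr5:138165321-138165404, in the order of transcription. They fall in the intron of 748 bases between exons 13 and 14 of Mcm7-201, a transcript of 15 exons. Mir93 and Mir25 also overlap exon 1 of the retained-intron transcript Mcm7-202, whereas Mir106b overlaps no annotated exon. The spacers hold 126 bases between Mir106b and Mir93 and 118 bases between Mir93 and Mir25. The hairpins are shown 5′ to 3′ because the positions used below are counted from their first base, with the RefSeq mature arms in capitals (RefSeq, GRCm38.p6):
Mir106b: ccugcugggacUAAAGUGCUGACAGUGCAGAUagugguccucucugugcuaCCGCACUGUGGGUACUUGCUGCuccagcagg
Mir93: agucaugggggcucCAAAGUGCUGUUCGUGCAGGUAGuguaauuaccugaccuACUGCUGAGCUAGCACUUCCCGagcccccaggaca
Mir25: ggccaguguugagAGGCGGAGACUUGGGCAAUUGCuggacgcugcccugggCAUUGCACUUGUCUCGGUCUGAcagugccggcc

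The mature arms group by their seed, which is set in capitals below because the seed families are compared later (RefSeq, GRCm38.p6). The 5p arms of Mir106b and Mir93 share 1 seed with miR-17-5p and miR-20a-5p of the miR-17~92 cluster. Across the 21 bases of miR-106b-5p, 16 were identical in miR-93-5p and 18 in miR-17-5p, so miR-106b-5p was closer in sequence to the paralog than to its neighbour:
miR-106b-5p: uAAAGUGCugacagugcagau
miR-93-5p: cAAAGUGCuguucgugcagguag
miR-17-5p: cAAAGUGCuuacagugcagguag
miR-20a-5p: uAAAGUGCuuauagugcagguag

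The 3p arm of Mir25 has a different seed, which it shares with miR-92a-3p, and 18 of the 21 bases compared were identical between them:
miR-25-3p: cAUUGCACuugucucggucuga
miR-92a-3p: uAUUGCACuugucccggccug

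The remaining strands of the 3 duplexes each carry a seed of their own:
miR-106b-3p: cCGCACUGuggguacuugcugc
miR-93-3p: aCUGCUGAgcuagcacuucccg
miR-25-5p: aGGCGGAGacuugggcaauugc

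The samples held 2201520 to 17691405 reads, of which 61.6% to 71.0% fell on hairpins. LPS replicate 2 stood apart from the other 5 samples, as it was the deepest and had only 18.6% of its distinct sequences seen once, against 67.1% to 74.6%. Control and LPS samples resembled each other within replicate numbers 1 and 3, but not within number 2. The chi-square statistic of the arm counts, which is about 1 per degree of freedom when 2 libraries differ by counting noise alone, was 6.51 between control 1 and LPS 1 and 4.68 between control 3 and LPS 3. All other pairs of samples gave 64.9 to 1413, including control 2 and LPS 2 with 674. For a given difference in make-up the statistic grows with read depth. The pairs that hold the deep LPS replicate 2, at 600 to 1413, are therefore not on one scale with the others. The myeloid miRNAs miR-223, miR-142, miR-21a, miR-146a and miR-155 were detected as 6 of 6 marker arms and summed to 159800 to 216100 RPM. Most of this sum was miR-21a-5p alone, at 122800 to 164300. The sum was highest in LPS replicate 2, where miR-146a-5p stood at 55430, against 2822 to 4515 in the other samples. The lymphocyte miRNA miR-150-5p stood at 14.9 to 49.2, the erythroid list at 0 to 0.584 with miR-144-3p at 0, and the muscle list at 0 to 0.584 with miR-1a-3p and miR-206-3p at 0. The epithelial list, all 4 of 4 arms, ranged from 63.0 to 152 and was highest in LPS replicate 2. There miR-200a-3p, miR-200b-3p and miR-200c-3p had their highest values, 43.65, 57.93 and 29.56. miR-141-3p did not, at 20.59 in that sample within a range of 15.35 to 37.93. Of the neuronal list, miR-9 stood at 0.366 to 3.34. The entry sought by the name miR-124 gave 166 to 274, but these values followed those of Mir1249-3p, a different miRNA, sample by sample. They are therefore not read as miR-124, and no miR-124 arm was among the arms tested below. The stromal list reached 6.01 to 11.7, with 2 of 3 arms detected, and the liver list 0 to 1.83. The part of these lists in the results below was not tested.

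The cluster was expressed in BMMs mainly as miR-93-5p and miR-25-3p, and neither the cluster nor any of its arms passed the test for a difference between LPS and control. miR-93-5p, known as a repressor of Cdkn1a, was found at 2371, 2360 and 2709 RPM in control replicates 1 to 3 and at 2387, 2211 and 2695 in LPS replicates 1 to 3. The groups overlapped, and replicate 3 was the highest sample in both. miR-25-3p, known as a repressor of Bcl2l11, was found at 2394, 2096 and 2813 in the control samples and at 2400, 2257 and 2783 in the LPS samples. Here too the groups overlapped, with replicate 2 lowest and replicate 3 highest in both. The group means were 2480 ± 198 (SD, n = 3) in control and 2431 ± 245 (SD, n = 3) in LPS for miR-93-5p. They were 2434 ± 360 (SD, n = 3) and 2480 ± 272 (SD, n = 3) for miR-25-3p. Among all 974 arms with reads, miR-25-3p ranked 42 and miR-93-5p ranked 43 by mean level, and they made up 45.0% and 44.9% of the cluster's reads. In bulk samples such as these, fewer cells that express a miRNA and less of it per cell cannot be told apart.

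The first hairpin of the cluster gave far fewer reads, spread over both of its arms. miR-106b-5p, which carries the same seed as miR-93-5p, was found at 251, 270 and 301 RPM in the control samples and at 252, 281 and 299 in the LPS samples. Replicate 1 was lowest and replicate 3 highest in both groups, and the group means were 274 ± 25.2 (SD, n = 3) and 277 ± 23.6 (SD, n = 3). Its partner strand miR-106b-3p was found at 225, 257 and 270 in the control samples and at 204, 227 and 288 in the LPS samples, so that the LPS samples held both the lowest and the highest value. These arms ranked 98 and 105 of 974.

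The partner strands of Mir93 and Mir25 were rare. miR-93-3p was found at 18.4, 17.5 and 17.3 RPM in control and at 14.5, 20.1 and 26.0 in LPS, from 30 to 220 reads a sample. miR-25-5p was found at 10.2, 16.3 and 8.88 in control and at 7.26, 13.4 and 13.3 in LPS, from 20 to 146 reads a sample. The groups overlapped for both arms, and the low counts limit their precision.

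**Figure D1:**
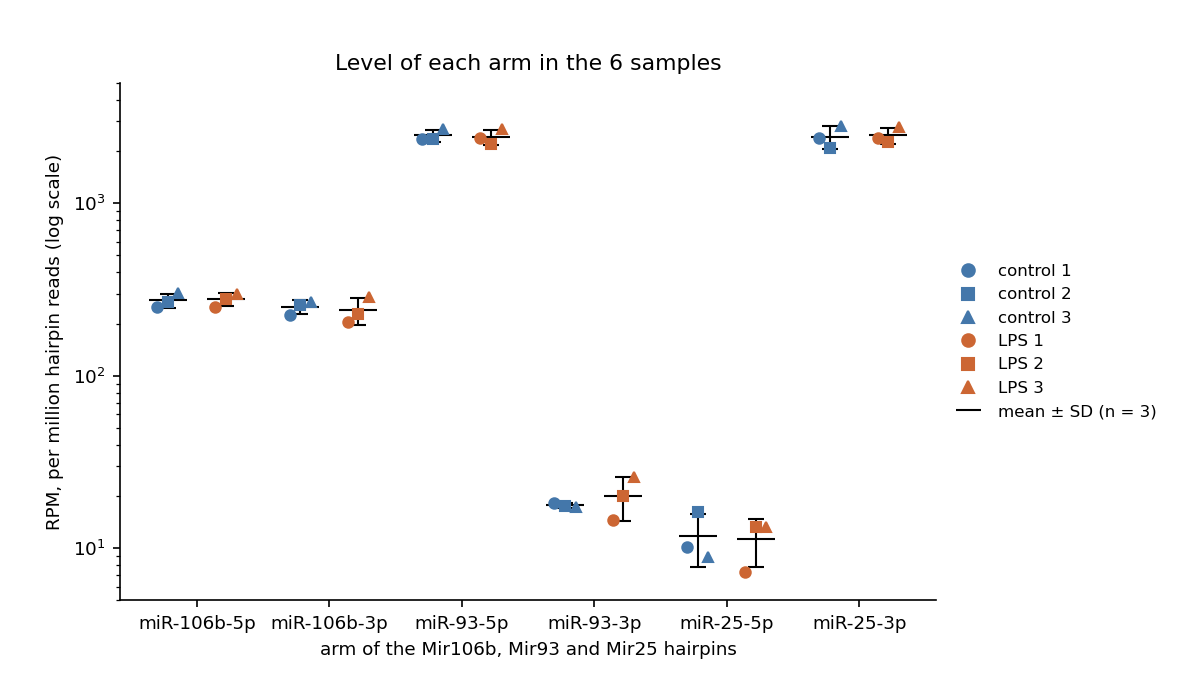
Level of each arm in RPM (log axis) for 3 control (blue) and 3 LPS (orange) samples, with marker shape giving the replicate number and bars the mean ± SD (n = 3). miR-93-5p and miR-25-3p lie between 2096 and 2813 in every sample, both arms of Mir106b between 204 and 301, and the partner strands of Mir93 and Mir25 between 7.26 and 26.0.

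In the edgeR quasi-likelihood fit over 319 arms, 0 arms passed an adjusted p of 0.05 (0% of those tested), and all 6 members had an adjusted p of 0.994. The log2 fold change (LPS over control) of miR-106b-5p was -0.01 (SE 0.128, 95% interval -0.31 to 0.30). That of miR-93-5p was -0.05 (SE 0.117, interval -0.33 to 0.22), and that of miR-25-3p was 0.00 (SE 0.136, interval -0.32 to 0.33). For miR-106b-3p it was -0.10, with an interval from -0.47 to 0.28. The intervals of the rare strands were wider, -0.45 to 0.72 for miR-93-3p and -0.94 to 0.78 for miR-25-5p. Over the 6 members the median was -0.03, against 0.00 over all 319 arms tested. At an unadjusted p under 0.05 there were 8 arms (2.51%), and in 10 arms (3.13%) the groups of 3 did not overlap, but none of the 6 members was among either. DESeq2 and limma-voom also called 0 arms. Without LPS replicate 2, the log2 fold changes of miR-106b-5p, miR-93-5p and miR-25-3p were -0.04, -0.01 and 0.04, with edgeR adjusted p of 0.998.

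The summed level of the cluster differed more between replicate numbers than between treatments. It was 5270, 5017 and 6119 RPM in control replicates 1 to 3 and 5265, 5009 and 6105 in LPS replicates 1 to 3. Thus replicate 3 was the highest and replicate 2 the lowest sample of each group, and the means were 5469 ± 577 (SD, n = 3) and 5460 ± 573 (SD, n = 3). The difference of the mean log2 level was -0.0023 (exact permutation test, two-sided, p = 0.7, with 0.1 the smallest p that 3 against 3 samples allow, adjusted p = 0.9 over 13 measures). Within samples of the same number, LPS was 0.999, 0.998 and 0.998 times control for replicates 1, 2 and 3. The 95% intervals for counting error alone were 0.977 to 1.02, 0.976 to 1.02 and 0.972 to 1.02. This near equality depended on the scaling. Per 1000000 of all reads in the sample, LPS was 0.933, 0.869 and 1.03 times control in the same pairs, and the mean log2 difference was -0.09 (exact permutation test, two-sided, p = 0.6). On the hairpin scale, a sign-flip test over the 3 pairs (exact, p = 0.25) cannot give a smaller p. Without LPS replicate 2, the difference between groups was 0.06 on the log2 scale, with the direction turned.

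Single arms were less even within pair 2, the pair that holds the library that stood apart. There, miR-93-5p in LPS was 0.937 times control (counting interval 0.906 to 0.969), miR-25-3p 1.08 times (1.04 to 1.11) and miR-106b-3p 0.883 times (0.798 to 0.977). In pairs 1 and 3, miR-93-5p was 1.01 and 0.995 times control, with both intervals across 1. The intervals cover counting error only, and reads without molecular identifiers are not independent molecules.

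The 3 hairpins are transcribed together. Ratios between their guide arms within a library describe the stoichiometry of these arms free of library size. They are not ratios of whole hairpins, since miR-106b-5p held only 50.9% to 55.3% of the Mir106b reads. With both arms summed, the mean levels in control were 525 RPM for Mir106b, 2498 for Mir93 and 2446 for Mir25. In LPS they were 517, 2451 and 2491 in the same order. miR-93-5p exceeded miR-106b-5p by 9.45, 8.76 and 9.00 times in control and by 9.47, 7.88 and 9.02 times in LPS, with LPS replicate 2 the lowest. miR-25-3p exceeded miR-106b-5p by 9.53, 7.78 and 9.35 times in control and by 9.52, 8.04 and 9.31 times in LPS, where replicate 2 was lowest in both groups. The miR-25-3p to miR-93-5p ratio was 1.01, 0.888 and 1.04 in control and 1.00, 1.02 and 1.03 in LPS, with control replicate 2 as the only sample under 1.

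Both guide arms lay above miR-106b-5p in 6 of 6 samples (mean log2 ratio 3.16 ± 0.0977 and 3.15 ± 0.133, SD, n = 6, exact sign-flip permutation test, p = 0.0312, the smallest it can give, adjusted p = 0.0469 over 3 ratios). The test took the 6 samples singly, although control and LPS samples of replicate numbers 1 and 3 were alike within each number. With the means of the 3 replicate numbers as the units, the log2 ratios were 3.16 and 3.15 and the call was lost (exact sign-flip permutation test, p = 0.25, the smallest that 3 units can give). miR-93-5p and miR-25-3p could not be ordered (mean log2 ratio -0.0032 ± 0.0841, SD, n = 6, exact sign-flip permutation test, p = 1). With 5 samples that test cannot go under 0.0625, and the mean log2 ratios to miR-106b-5p without LPS replicate 2 were 3.19 and 3.18. None of the 3 ratios differed between LPS and control beyond the spread of the samples (exact permutation tests, two-sided, p = 0.7 to 0.9, adjusted p = 0.9). Library kits ligate some ends better than others, and that bias was not removed from ratios between different sequences.

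**Figure D2:**
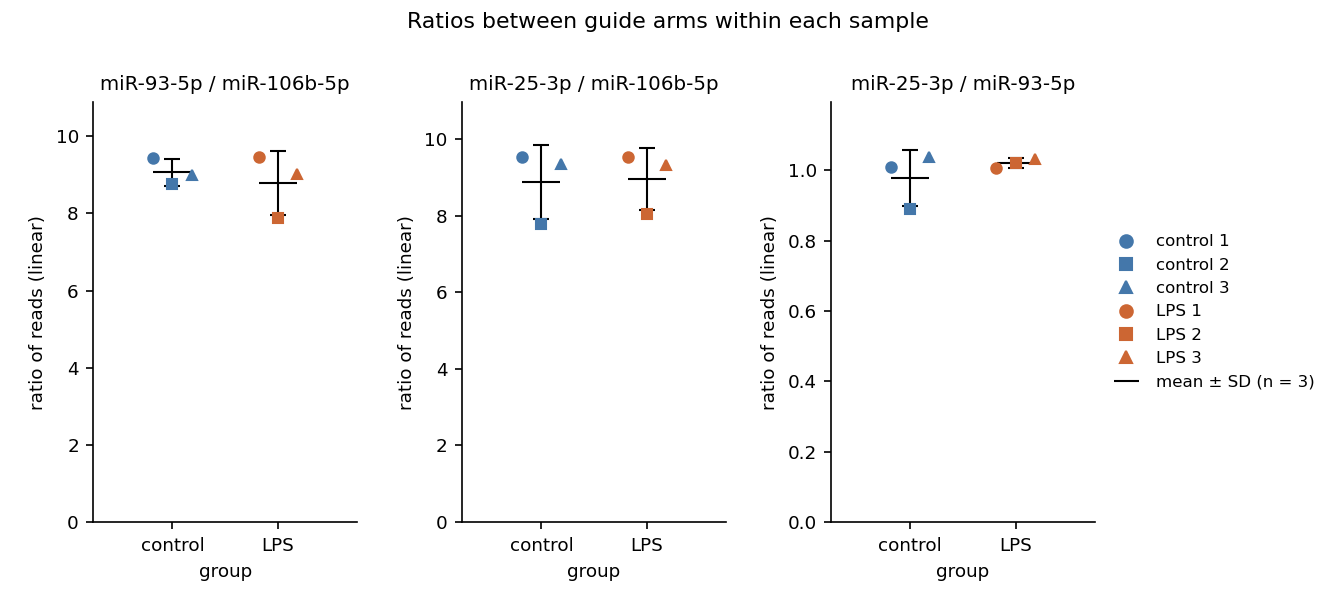
Ratio of reads between guide arms within each sample (linear axis from 0) for 3 control (blue) and 3 LPS (orange) samples, with marker shape giving the replicate number and bars the mean ± SD (n = 3). Both ratios to miR-106b-5p lie between 7.78 and 9.53, and the ratio of miR-25-3p to miR-93-5p between 0.888 and 1.04.

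The 3 hairpins differed in how their reads were divided between strands. Mir106b gave 5p and 3p reads in nearly equal amounts, with a 5p share of 52.7%, 51.2% and 52.7% in control and 55.3%, 55.3% and 50.9% in LPS. Its lowest and highest values were both in LPS samples, and the Wilson 95% intervals of control 1 (49.9% to 55.5%) and LPS 1 (52.7% to 57.8%) overlapped. Mir93 gave 99.0% to 99.4% of its reads from the 5p arm, and Mir25 gave 0.301% to 0.773% from the 5p arm. The neighbouring hairpins Mir93 and Mir25 thus favoured opposite arms, and Mir106b favoured neither arm strongly. Calling miR-106b-5p a guide arm and miR-106b-3p its partner strand is therefore a naming choice, not a result of these reads. The mean shares differed between LPS and control by 1.62 percentage points for Mir106b, -0.11 for Mir93 and -0.05 for Mir25 (exact permutation tests, two-sided, p = 0.4, 0.4 and 0.8, adjusted p = 0.9). Leaving out 1 sample moved these differences by over 1.5 times, to between 0.885 and 3.08 for Mir106b, -0.22 and -0.04 for Mir93, and -0.14 and 0.09 for Mir25.

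The 5′ end of a strand sets its seed, and 3 of the abundant arms started at a single base. At least 99.5% of the reads of miR-106b-5p, miR-93-5p and miR-25-3p started at the RefSeq 5′ end in every sample. miR-106b-3p differed, with a pair of separate starts in all 6 samples. On average 67.5% of its reads started at hairpin position 52, the RefSeq 5′ end, 29.5% at position 50, and only 2.12% at position 51 between them. Of reads with either main start, the earlier start made up 35.2%, 30.9% and 29.9% in control and 31.6%, 28.0% and 26.8% in LPS, where the groups overlapped. The mean share of the later start was 3.20 percentage points higher in LPS (exact permutation test, two-sided, p = 0.3, adjusted p = 0.9), and this measure was chosen after the reads had been seen. Without LPS replicate 2 the difference was 2.81 percentage points, without control replicate 1 it was 1.61, and over all 6 samples left out in turn it ranged from 1.61 to 4.59.

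The most common read of each start is shown as sequenced, with bases 2 to 8 in capitals, because a shift of 2 bases exchanges the seed. The seed of the earlier form was found in the most common read of 0 other arms, and that of the later form only in miR-106b-3p itself:
Earlier start (position 50): tACCGCACtgtgggtacttgct
Later start (position 52): cCGCACTGtgggtacttgct

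**Figure D3:**
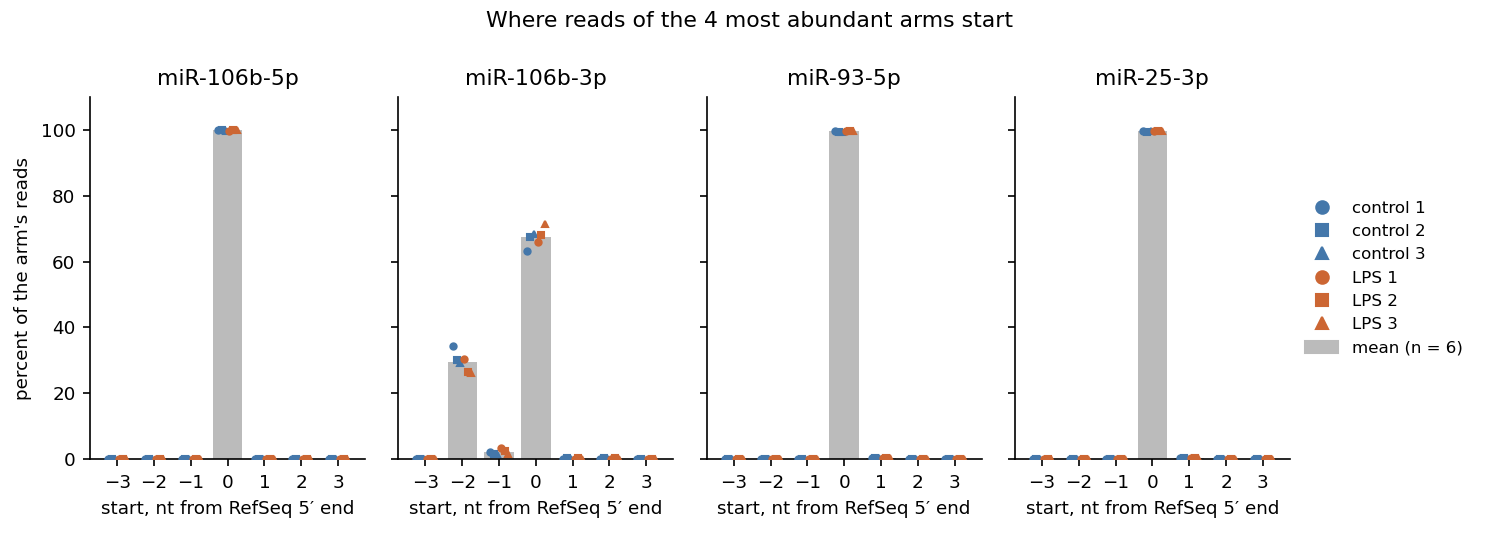
Share of each arm's reads (percent) by the distance of their first base from the RefSeq 5′ end in nt, for 3 control (blue) and 3 LPS (orange) samples, with grey bars for the mean (n = 6). Reads of miR-106b-3p divide between distance 0 (mean 67.5%) and distance -2 (mean 29.5%), and the other 3 arms have at least 99.5% at distance 0.

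The forms of miR-106b-3p with different starts also ended differently. Of the reads with the earlier start, 91.9% to 96.6% of a sample ended at position 71, which gives a length of 22 nt. Of the reads with the later start, only 34.1% to 50.2% ended there, a length of 20 nt, and 26.2% to 40.5% ended at position 72 and 13.6% to 18.2% at position 73. Bases at the 3′ end that do not match the hairpin, such as those added by terminal nucleotidyltransferases, were found on 0% to 5.58% of the reads with the earlier start and on 33.0% to 39.5% of those with the later start. The ranges over the 6 samples did not overlap. These shares also varied with the last matched base, where the starts differ. Among reads that ended at position 71, unmatched bases were on 0.494% with the earlier start (0% to 2.21% of a sample). With the later start they were on 3.18% (1.58% to 4.04%), and these ranges overlapped.

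The RefSeq form of miR-106b-3p, 22 nt from position 52 to 73, was all but missing as a plain read. It made up 0.174%, 0.907% and 0.470% of the arm's reads in control and 0.464%, 0.282% and 0% in LPS, from at most 7 reads a sample. Over the 6 samples, 519 reads with the later start matched the hairpin up to position 73, and 501 of them (96.5%) carried further unmatched bases. At position 71 this was 3.18% of 1414 reads, at position 72 50.2% of 1253 reads, and at position 74 10.8% of 232 reads. The base after position 73 is a U in the hairpin, so a U added to the RefSeq form cannot be told apart from a read that ends at position 74.

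**Figure D4:**
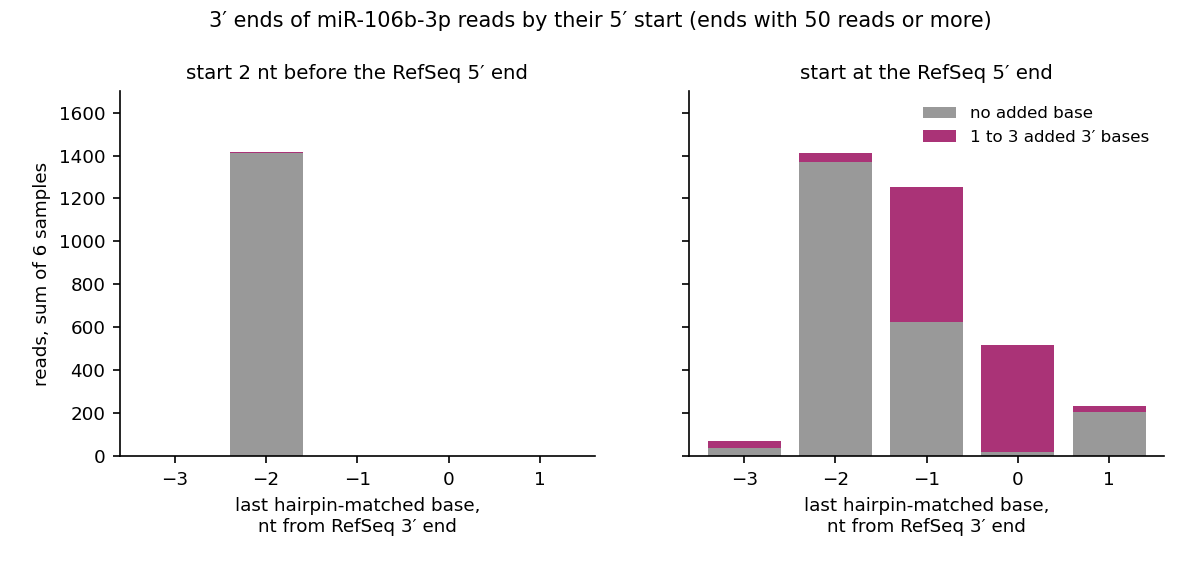
Reads of miR-106b-3p summed over the 6 samples (vertical axis, reads) by their last hairpin-matched base, in nt from the RefSeq 3′ end, for the earlier start (left) and the later start (right), for ends with at least 50 reads. Purple marks reads with unmatched 3′ bases, which are 501 of 519 reads at distance 0 and 45 of 1414 reads at distance -2 for the later start.

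A short piece of the Mir106b loop was also sequenced. It covers positions 34 to 51 and so ends at the base before the later start of miR-106b-3p, and it was read 1, 2 and 5 times in control and 0, 63 and 3 times in LPS. LPS replicate 2 thus held most of these reads, at 5.77 RPM against 0 to 2.11 in the other 5 samples. Because arms were split at the hairpin midpoint, these reads are included in the level and the read total of miR-106b-3p. They made up 0% of that arm's reads in LPS replicate 1 and 2.54% in LPS replicate 2. A piece with the same first base that abutted the earlier start would be shorter than 18 nt, so it was not counted here. With reads of 16 nt or more, the only other piece that started close by covered positions 35 to 50, with 5 reads, all in LPS replicate 2. Still shorter pieces were not sought. The piece of 18 nt is shown because it abuts the later start:
Mir106b loop (positions 34 to 51): GTGGTCCTCTCTGTGCTA

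The 3′ ends of the guide arms varied as well. For miR-93-5p, the most common read was 2 bases shorter than the RefSeq form of 23 nt. This form of 21 nt made up 37.0%, 37.4% and 37.5% of the arm's reads in control and 37.4%, 44.1% and 37.2% in LPS, and the RefSeq form 20.4% to 25.0%. Apart from LPS replicate 2, the samples lay within 37.0% to 37.5%. The mean difference was 2.26 percentage points with all samples (exact permutation test, two-sided, p = 0.6, adjusted p = 0.9) and 0.0095 without LPS replicate 2:
miR-93-5p, most common read: cAAAGTGCtgttcgtgcaggt

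For miR-106b-5p and miR-25-3p the RefSeq form was the most common read. It made up 53.0%, 53.7% and 52.1% of miR-106b-5p reads in control and 56.3%, 51.0% and 54.0% in LPS. For miR-25-3p it made up 64.1%, 63.3% and 68.3% in control and 63.7%, 65.0% and 65.5% in LPS. The groups overlapped for both arms, and the mean differences were 0.86 and -0.49 percentage points (exact permutation tests, two-sided, p = 0.7 and 0.9, adjusted p = 0.9).

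Unmatched 3′ bases were carried by 22.5% to 26.5% of miR-106b-3p reads, 14.1% to 16.1% of miR-25-3p reads, 11.4% to 13.9% of miR-93-5p reads and 8.96% to 12.8% of miR-106b-5p reads. These bases were A alone in 53.5% of such miR-106b-3p reads, and T alone in 62.7% of such miR-106b-5p reads. Sequencing errors at the last bases are counted among them. An added base that equals the next hairpin base counts as matched. That base is an A after the RefSeq end of miR-106b-5p and a U after that of miR-106b-3p. Reads of miR-106b-5p with this A made up 13.8% of the arm on average. The amount and make-up of unmatched bases can therefore not be compared directly between arms.

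Members of the cluster supplied most reads of one seed family and a small part of the other. For the seed of miR-106b-5p, the cluster's share of all reads with that seed was 82.9%, 78.9% and 79.3% in control and 83.3%, 69.0% and 78.4% in LPS. LPS replicate 2 was lowest by a wide margin, and replicate 1 was highest in both groups. miR-93-5p alone gave 61.2% to 75.3%, more than miR-106b-5p (7.77% to 8.09%), miR-17-5p (9.30% to 17.1%) and miR-20a-5p (7.45% to 14.0%) in every sample. In LPS replicate 2, miR-17-5p and miR-20a-5p were 1.64 and 1.66 times the mean of the other 5 samples by TMM-normalized level, miR-93-5p 0.877 times and miR-106b-5p 1.02 times. The mean difference between groups was -3.49 percentage points (exact permutation test, two-sided, p = 0.5, adjusted p = 0.9) and 0.458 without LPS replicate 2.

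For the seed of miR-25-3p, the cluster's share was 9.57%, 7.47% and 8.75% in control and 9.42%, 9.75% and 8.51% in LPS. miR-92a-3p, counted at the Mir92-1 hairpin of the miR-17~92 cluster, gave 89.5% of the reads with this seed on average. The mean difference in the cluster's share was 0.63 percentage points (exact permutation test, two-sided, p = 0.6, adjusted p = 0.9). It was 0.0646 without control replicate 2 and 1.12 without control replicate 1.

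**Figure D5:**
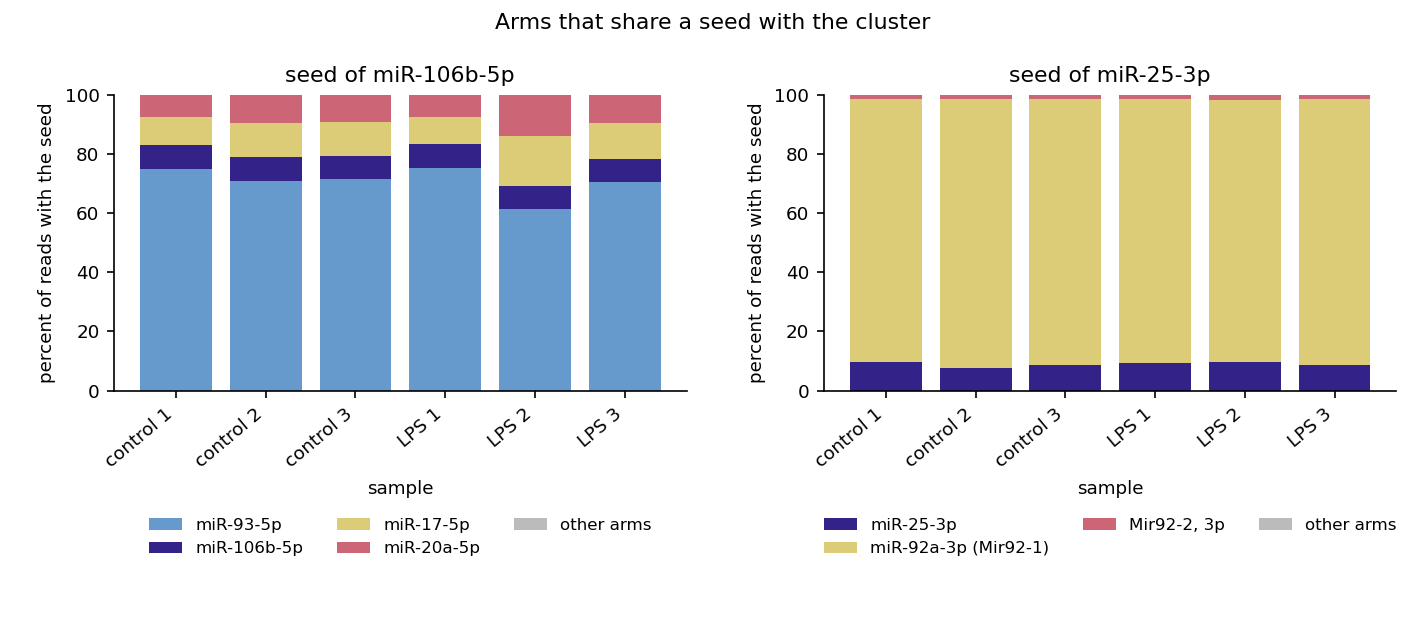
Share (percent) of all reads that carry the seed of miR-106b-5p (left) or of miR-25-3p (right) by the arm they came from, one stacked bar per sample. miR-93-5p and miR-106b-5p together take 69.0% to 83.3% of the first family, and miR-25-3p takes 7.47% to 9.75% of the second.

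Among the paralogous clusters and Mir32, which belongs to the miR-25 seed family, 17 arms had reads and 12 were tested. By the edgeR quasi-likelihood test, 0 of the 12 rose or fell with LPS at an adjusted p of 0.05 (0% over all 319 arms). Their log2 fold changes ranged from -0.15 to 0.46 with a median of 0.10, against a median of 0.00 over all arms tested. miR-17-5p and miR-20a-5p had log2 fold changes of 0.27 (SE 0.27) and 0.25 (SE 0.28), and Mir92-1-3p had -0.10 (SE 0.156).

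The correlations in this paragraph used log2 TMM-normalized levels, not RPM. They were not computed on RPM, where replicate 3 was highest in both groups for all 3 guide arms, so they depend on this scaling. Within the cluster, the levels of miR-93-5p and miR-25-3p over the 6 samples correlated at r = 0.749. For miR-106b-5p, r was 0.10 with miR-93-5p and 0.116 with miR-25-3p. Among the other arms tested, Mir130b-5p (r = 0.986), Mir221-3p (0.977) and Mir301b-3p (0.972) were most like miR-106b-5p. Mir301-3p (0.976), Mir107-3p (0.953) and Mir671-3p (0.946) were most like miR-93-5p, and Mir30a-3p (0.936), Mir185-3p (0.927) and Mir298-5p (0.927) were most like miR-25-3p. The nearest arms differed between the 3 members. All arms share the same 6 libraries and their depth, so these values are descriptive. The arms named were picked for the highest r among those tested, so high values come with the choice. The TMM-normalized level of miR-106b-5p spanned only 260 to 286. Its low r with the other members therefore does not show that it varies apart from them.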

How the data were processed

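Bone marrow cells were cultured and treated as given above, and small RNA libraries (TruSeq small RNA kit, Illumina HiSeq) were trimmed of adaptor by the authors with perl scripts and Btrim64. The files the authors deposited hold raw counts of each distinct trimmed read of 11 to 40 nt, without miRNA names or normalization. The submitters' processing notes name the build mm9, and coordinates here are GRCm38. The authors' mirAnalyzer quantification was not used here. The labels give DMEM as medium and the methods RPMI.

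Exact matches to 1174 GENCODE M21 hairpins were sought for each read of 18 nt or longer, allowing up to 3 unmatched 3′ bases, and matched reads were assigned to an arm by the hairpin midpoint. Arms that shared at least 50% of their reads were merged. Levels are RPM of hairpin reads. Such hairpin reads numbered 1498849 to 10927393 per sample, so the rare arms of the shallow samples are least precise. Counts of 319 arms left by filterByExpr were normalized by TMM and compared with edgeR 4.0.16 (R 4.3.3) by the quasi-likelihood test with Benjamini-Hochberg adjustment. Ratios and shares were compared by exact permutation tests (scipy 1.17.1) with Wilson 95% intervals. The chi-square compared arms with at least 20 reads in a pair of libraries. All 6 arms matched a RefSeq mature sequence. Scripts were tested on simulated data. The counts simulated for edgeR had less spread between samples than these data. That test therefore checked the code, not which changes could be found here. The alternatives tried were limma-voom (limma 3.58.1), DESeq2 1.42.0, other scalings and filters, other read rules, the replicate block and each sample left out.

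The sample titles number the replicates 1 to 3 in both groups. Deviations from the group means correlated at 0.602, 0.261 and 0.276 for the same number and at -0.392 to 0.158 for different numbers, so the numbers were taken to pair the samples. This pairing rests on the data, since no source says what a number marks. It is weakest for number 2, where the correlation of 0.261 lay close to the 0.158 of control 3 with LPS 2. The chi-square there was 674, a value that the depth of LPS replicate 2 also raises. Members, gene lists and tests were chosen with earlier results of these data known. The text names all 6 arms of the cluster, the seed relatives in the paralogous clusters and the 3 arms most like each guide arm.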

Additional observations from a re-analysis of the deposited data

How the results depend on the processing

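Over 114 refits of the 6 member arms under the alternatives, 0 passed an adjusted p of 0.05 (edgeR, DESeq2 or limma-voom). miR-106b-5p turned to a log2 fold change of 0.0089 with DESeq2 size factors, 0.0176 with library totals, 0.0062 with no filter and with at least 10 reads in every sample, 0.008 with DESeq2 and 0.0076 with exact matches. miR-25-3p turned to -0.0706 with upper-quartile scaling and -0.0054 with exact matches. With exact matches, the difference in summed level turned to 0.0099, that of the miR-25-3p to miR-106b-5p ratio to -0.0088 (both log2) and that of the miR-25-3p seed share to -0.50 percentage points. Per 1000000 of all reads, the difference in summed level was -0.09 (log2). Without a filter, 21 of the 974 arms with reads were higher with LPS, against 0 with it, and no member was among them. With so small a share of arms called, the absence of the 6 members says nothing about the cluster.

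With the replicate block, no call of a difference between LPS and control changed, but both calls on the order of the guide arms were lost (mean log2 ratios 3.16 and 3.15, p = 0.25 by an exact sign-flip permutation test over 3 replicate numbers, a block added after seeing the data). With it miR-93-5p had a log2 fold change of -0.06 and the summed level a difference of -0.0023. With the block and pair 2 left out, an alternative chosen after seeing the data, miR-93-5p turned to 0.0004, miR-25-5p to 0.0111 and miR-25-3p to -0.0061.

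Leaving out each sample in turn gave log2 differences of -0.0855 to 0.0813 for the summed level, -0.11 to 0.0278 for miR-93-5p over miR-106b-5p, -0.0798 to 0.0895 for miR-25-3p over miR-106b-5p and -0.0058 to 0.11 for miR-25-3p over miR-93-5p. Differences of shares, in percentage points, were 0.885 to 3.08, -0.22 to -0.0398 and -0.14 to 0.0869 for the 5p shares of Mir106b, Mir93 and Mir25, -0.42 to 2.25 for the most common miR-106b-5p read, -1.44 to 1.04 for that of miR-25-3p, 0.0095 to 3.42 for that of miR-93-5p, -6.69 to 0.458 for the miR-106b-5p seed, 0.0646 to 1.12 for the miR-25-3p seed and 1.61 to 4.59 for the later start of miR-106b-3p. Log2 fold changes were -0.0417 to 0.0313 for miR-106b-5p, -0.0119 to 0.30 for miR-93-3p, -0.29 to 0.23 for miR-25-5p, which turned to 0.23 without control replicate 2 and 0.15 without LPS replicate 1, and -0.0763 to 0.0789 for miR-25-3p. The mean log2 ratios over miR-106b-5p stayed at 3.14 to 3.19 for miR-93-5p and 3.13 to 3.19 for miR-25-3p, where 5 samples cannot give a p under 0.0625, and -0.0147 to 0.0303 for miR-25-3p over miR-93-5p. The shallowest sample held 20 reads of miR-25-5p, so only large changes of the rare strands could have been seen.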
